A study of Danio rerio with 6 samples.

Results

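Chaperones are proteins that help other proteins fold, and cells raise their production when proteins misfold. The genes described here are the heat shock and unfolded protein genes of the zebrafish larval gut: the Hsp chaperones of the cytosol, endoplasmic reticulum (ER) and mitochondria, their J protein partners (DnaJ proteins), the protein disulfide isomerases, the genes of ER-associated degradation (ERAD), and the transcription factors and sensors that control them. They were chosen from gene symbols alone, as every gene whose symbol begins with hsp, dnaj, hsf1, hsf2, pdia, xbp1, atf4, atf6, ern1, eif2ak3, ddit3, calr, canx, hyou1, sel1l, edem, herpud, creb3l or derl. This gave 110 of the 15419 genes listed, of which 96 had enough counts to be tested. A further 9 were listed at 0 counts in every library (dnaja3b, dnajb6b, dnajc28, hspa12a.1, hspa12a.3, hspa14, hspb2, hspb3 and hspb8). The annotation and counting tool were not given, so these 0 counts cannot be read as lack of expression. Another 5 had too few counts (creb3l3l, dnajb5, dnajb13, dnajc3a and hsp70.1). eif2ak3, which encodes the ER stress sensor PERK, was not analysed here.

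Guts were dissected from conventionally reared larvae at 5 days post-fertilization (dpf), and 10 to 15 guts were pooled in each library for bulk mRNA sequencing. The wild-type (WT) group and the il26KO group had 3 libraries each. The il26KO larvae carried a germline CRISPR/Cas9 deletion of a part of il26, a gene that encodes interleukin-26, a cytokine of the IL-10 family. Parents of both genotypes were clutchmates that had been kept in separate tanks, so genotype and parental tank cannot be told apart. Total counts per library ranged from 15693057 to 28303340. The listed il26 gene had 0 counts in all 6 libraries, so the targeted gene gave no check of the genotype labels. Enterocyte markers were present in every library (15 of 18 listed, summed level 24796 to 31475 CPM, counts scaled to a common library size), as were markers of acinar pancreas, liver and skeletal muscle, so each library held RNA of neighbouring organs beside that of the gut tube. Some listed markers had few counts, with totals over the 6 libraries of 45 for fabp2 (enterocyte) and 45 and 42 for ctrb1 and cpb1 (pancreas). Levels below are in CPM, and they were not corrected for transcript length. In pooled tissue, fewer cells of a type and less RNA per cell cannot be told apart.

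In the cytosol, protein misfolding releases heat shock factor 1 (Hsf1) from chaperones, and Hsf1 then drives the stress-inducible Hsp70, Hsp90 and J protein genes. In the ER, 3 sensors run the unfolded protein response: Ire1 (ern1) splices the mRNA of xbp1, PERK phosphorylates a translation factor so that Atf4 is made, and Atf6 is cleaved into a transcription factor. Their targets include the ER chaperones BiP (hspa5) and Grp94 (hsp90b1), disulfide isomerases, ERAD genes and the transcription factor Chop (ddit3). The PERK arm merges with other kinases that sense amino acid shortage or viral RNA into the integrated stress response, which shares Atf4. Secretory cells such as pancreatic acinar cells carry a large ER and much of its folding machinery.

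None of the 96 tested genes passed the threshold of an adjusted p below 0.05 (edgeR quasi-likelihood test, Benjamini-Hochberg adjustment over 11095 genes). The smallest adjusted p was 0.421, for dnajc4. Over all genes tested, 0.108% were called, 12 genes in all. At an unadjusted p below 0.05, 2 members had a higher level in il26KO (2.08%) and 3 a lower one (3.12%), against 3.52% and 2.51% of all genes. DESeq2 also called 0 members, with 0 higher and 3 lower at an unadjusted p below 0.05. The libraries of the genotypes did not overlap for 8 members. For dnajc5aa, ern1 and creb3l2 the il26KO libraries all lay above the WT libraries (3.12% of members, against 5.94% of all genes). For dnajb1b, dnaja2b, pdia6, dnajc4 and ddit3 they all lay below (5.21% of members, against 4.91% of all genes). The members' shares were thus close to those of all genes.

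Most members were measured closely enough to bound a difference. The median standard error (SE) of a member's log2 fold change was 0.123, against 0.125 for all genes. For 68 of the 96 genes the interval of 2 SE on either side of the log2 fold change lay within ±0.5, and for 34 of them within ±0.3. The median log2 fold change of il26KO over WT was −0.022 for the members and 0.011 for all genes tested.

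**Figure D1:**
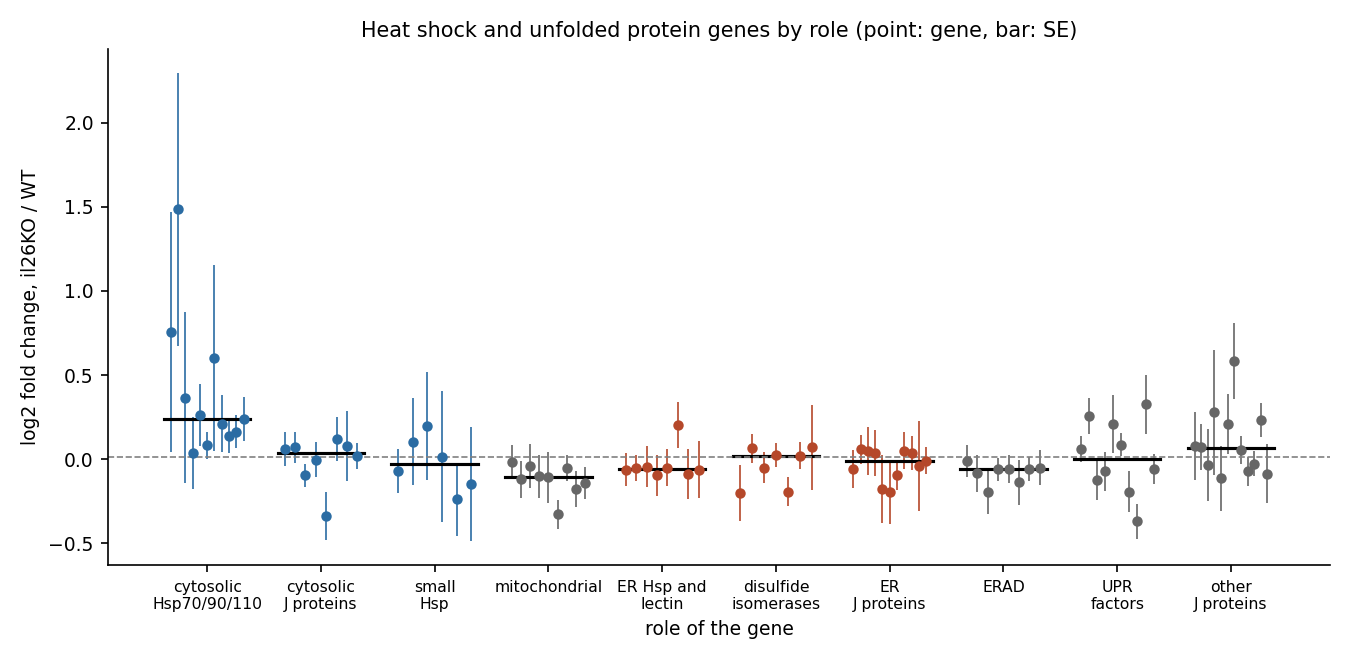
Log2 fold change of il26KO over WT for each tested gene, grouped by role, with bars of 1 SE, black lines at the median of each role and a dashed line at the median of all genes tested. All 11 cytosolic Hsp70, Hsp90 and Hsp110 genes lie above 0, and all 8 ERAD and all 9 mitochondrial genes lie below it. With at least 10 counts required in every library, 8 of these 11 cytosolic genes were left, all above 0. The points furthest above 0, those of hsp70.3 and hsp70.2, have the widest bars.

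The cytosolic Hsp70, Hsp90 and Hsp110 genes encode the ATP-driven chaperones that fold newly made and damaged proteins. All 11 tested genes of this group had a positive log2 fold change, with a median of 0.24, and 0 of them passed the test. With at least 10 counts required in every library, 8 genes of the group were left, all positive, with a median of 0.19. Over all genes tested, 53.2% had a positive log2 fold change. Without WT replicate 1, WT replicate 2 or il26KO replicate 1, 10 of the 11 were positive. Without il26KO replicate 3, 8 were positive and the median was 0.097.

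hsp90ab1 encodes the constitutive Hsp90 and took 0.732% to 0.818% of all counts in a library. Its level was 7854, 7334 and 7415 CPM in WT replicates 1 to 3 and 8039, 8203 and 7689 CPM in il26KO replicates 1 to 3. The groups overlapped, since il26KO replicate 3 lay below WT replicate 1. The log2 fold change was 0.08 ± 0.08 (SE, n = 3 per genotype; adjusted p = 0.921, edgeR quasi-likelihood test), and 2 SE on either side ran from −0.08 to 0.24. hspa8, the constitutive cytosolic Hsp70 (Hsc70), was at 891, 824 and 793 CPM in WT and at 887, 1049 and 870 CPM in il26KO. The highest value was that of il26KO replicate 2, and the other il26KO libraries lay inside the WT range. Its log2 fold change was 0.16 ± 0.10. The Hsp110 nucleotide exchange genes hspa4a and hspa4b, which recharge Hsp70, gave 0.21 ± 0.17 and 0.14 ± 0.10.

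The stress-inducible Hsp70 genes hsp70l, hsp70.1, hsp70.2 and hsp70.3 stood high in a single library, il26KO replicate 3. hsp70l, the heat-inducible Hsp70 used in zebrafish heat shock transgenes, was covered by 56, 88 and 52 counts in the WT libraries (replicates 1 to 3 in order) against 29, 32 and 176 in those of il26KO. For hsp70.3 the counts were 12, 24 and 15 in WT against 17, 4 and 119 in il26KO. For hsp70.2 they were 18, 12 and 7 against 8, 3 and 48. In all 3 genes il26KO replicate 3 was the highest library and another il26KO library the lowest. hsp70.1, which had too few counts for the test, ran the same way, with 8, 5 and 10 counts in WT against 3, 3 and 25 in il26KO. A further cytosolic Hsp70 gene, hspa1b, did not, with 4, 7 and 17 counts in WT against 17, 9 and 11 in il26KO. hsp70.1, hsp70.2 and hsp70.3 lie next to each other in the RefSeq annotation of zebrafish, and how the counting treated reads that match several of them was not given, so their separate values are uncertain.

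Summed over these 4 genes, a sum chosen after the values were seen, the level was 3.82, 4.75 and 3.51 CPM in WT and 2.59, 2.68 and 13.0 CPM in il26KO. The exact 95% Poisson interval of il26KO replicate 3 was 11.7 to 14.4 CPM, and it covers counting error only. This interval lay above the values of the other libraries, and it assumes that no read was counted for several of these genes. The remaining il26KO libraries were the lowest of the 6. WT averaged 4.03 ± 0.65 CPM (SD, n = 3) and il26KO averaged 6.08 ± 5.97 CPM (SD, n = 3), and without replicate 3 the il26KO mean was 2.64 ± 0.07 CPM (n = 2). The sum in il26KO replicate 3 was 3.74 times the mean of the other 5 libraries.

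The fitted log2 fold changes followed that library. They were 1.49 ± 0.81 for hsp70.3 (adjusted p = 0.881, edgeR quasi-likelihood test), 0.76 ± 0.72 for hsp70.2 and 0.37 ± 0.51 for hsp70l. Without il26KO replicate 3 they were −0.30, −0.75 and −0.64. Ranked on the SD of log2 CPM within genotypes, pooled over both, these genes were at the 99.7th, 99.4th and 98.9th percentile of all genes tested. In il26KO replicate 3, 0.18% of all genes tested (20 genes) were at least 2 times the mean of the other 5 libraries. hsp70.3 (6.94 times), hsp70.2 (4.19 times) and hsp70l (2.81 times) were among them, and only the first 2 of all genes tested were above 3 times. hsp70.2 reached 10 counts only in WT replicates 1 and 2 (18 and 12) and il26KO replicate 3 (48). It was thus kept for testing through the library where it was high, and its ranks among tested genes are a description only. With at least 10 counts required in every library, hsp70.2 and hsp70.3 were not tested.

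Other heat shock genes differed less in that library, and not all in the same direction. hsp90aa1.2, a stress-inducible Hsp90, was at 16, 20.7 and 20.4 CPM in WT and at 19.98, 18.7 and 29.6 CPM in il26KO, so that il26KO replicate 3 was again the highest, at 1.54 times the mean of the other 5 libraries. Its log2 fold change was 0.26 ± 0.18. Its neighbour hsp90aa1.1, which serves myosin folding in zebrafish muscle, gave 0.04 ± 0.22. dnajb1b, a J protein partner of Hsp70 that heat shock induces, was at 0.994 times the mean of the other libraries in il26KO replicate 3. For the small Hsp gene hspb1 this ratio was 0.888.

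**Figure D2:**
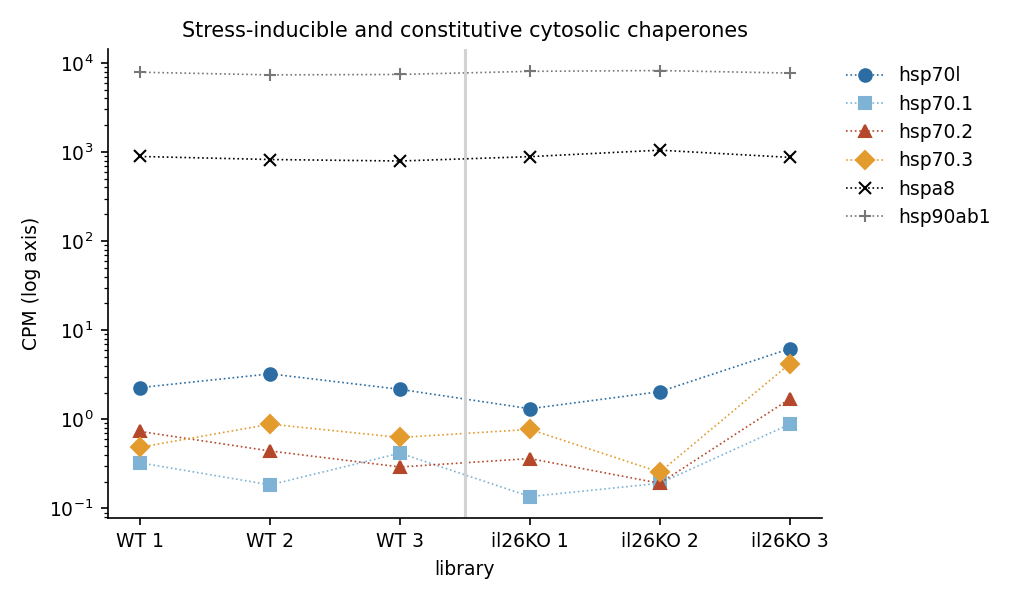
Level in CPM on a log axis of 4 stress-inducible Hsp70 genes and 2 constitutive cytosolic chaperones in each of the 6 libraries, with dotted lines joining the points of a gene. The inducible genes are highest in il26KO replicate 3 while hspa8 and hsp90ab1 are level across the libraries.

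The transcription factors of the heat shock response did not pass the test. hsf1 had a log2 fold change of −0.05 ± 0.09. hsf2, the related factor active in development, was at 52.7, 49.3 and 34.3 CPM in WT and at 40.5, 35.9 and 35.4 CPM in il26KO, a log2 fold change of −0.29 ± 0.15 (adjusted p = 0.875, edgeR quasi-likelihood test). WT replicate 3 was the lowest of all libraries, so the groups overlapped.

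J proteins deliver clients to Hsp70 and set its ATPase going. Of 8 tested cytosolic J protein genes of class A or B (symbols dnaja and dnajb), 5 had a positive and 3 a negative log2 fold change, with a median of 0.04. dnajb1b was at 19.7, 18 and 19.2 CPM in WT and at 11.6, 16.4 and 16.9 CPM in il26KO. Every il26KO library lay below every WT library, and il26KO replicate 1 was the lowest. The log2 fold change was −0.34 ± 0.14 with an unadjusted p of 0.0430 and an adjusted p of 0.815 (edgeR quasi-likelihood test). dnaja2b, a further partner of Hsp70, was at 67.8, 69.0 and 68.6 CPM in WT and at 61.7, 64.6 and 65.7 CPM in il26KO. The libraries did not overlap here either, with a log2 fold change of −0.10 ± 0.07, and its paralog dnaja2a gave 0.07 ± 0.09.

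Among 12 tested J protein genes of other roles, which include class C genes such as dnajc7 and dnajc2, 7 were positive and 5 negative. dnajc5aa, a paralog of the cysteine string protein of synaptic vesicles, was at 0.975, 0.884 and 1.00 CPM in WT and at 1.63, 1.53 and 1.16 CPM in il26KO. All il26KO libraries lay above the WT libraries at this low level, and the log2 fold change was 0.58 ± 0.23 with an adjusted p of 0.778 (edgeR quasi-likelihood test). dnajc8, which belongs to the splicing machinery, gave 0.23 ± 0.10 with an unadjusted p of 0.0506.

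Small Hsps hold unfolded proteins without using ATP, and several are muscle proteins. Of 6 tested genes, 3 were positive and 3 negative, with a median of −0.03. hspb1 (Hsp27) was at 13.3, 15.9 and 17.3 CPM in WT and at 16.8, 13.7 and 13.7 CPM in il26KO. Its groups overlapped, with a log2 fold change of −0.07 ± 0.13. Of 34 skeletal muscle markers, 30 were listed and 22 tested, with actn3a, pvalb2 and pvalb3 at 0. Totals over the 6 libraries were 1 to 7 counts for ckma, casq1a, tnnc2, mylpfa and ldb3a. The listed markers summed to 2292, 3005 and 5348 CPM in WT and to 4698, 2649 and 3873 CPM in il26KO. hspb1 was thus highest in the 2 libraries with the highest muscle marker sum, WT replicate 3 and il26KO replicate 1, and the part of muscle RNA in its level was not tested.

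All 9 tested genes of mitochondrial chaperones had a negative log2 fold change, with a median of −0.11. When any library other than il26KO replicate 2 was left out, 8 of 9 were negative. hspd1 (Hsp60) and hspe1 (Hsp10) form the folding chamber of the matrix, are neighbours in the RefSeq annotation, and gave −0.18 ± 0.11 and −0.14 ± 0.09. hspd1 was at 135, 155 and 117 CPM in WT and at 121, 122 and 117 CPM in il26KO. The groups overlapped, with the il26KO libraries near the lower end of the WT range. hspa9 (mortalin), the Hsp70 of the matrix, gave −0.05 ± 0.08.

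dnajc4, a J protein of mitochondria in mammals, had the smallest p of the 96 genes. It was at 11.7, 11.6 and 11 CPM in WT and at 9.08, 9.14 and 9.06 CPM in il26KO. The libraries of each genotype lay close together and apart from those of the other genotype. Its log2 fold change was −0.33 ± 0.09, with an unadjusted p of 0.00497 and an adjusted p of 0.421 (edgeR quasi-likelihood test).

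The ER chaperones fold proteins that enter the secretory pathway. Of 8 tested genes for ER Hsp and lectin chaperones, 7 had a negative log2 fold change and none passed the test, with a median of −0.06. Without il26KO replicate 1, 4 of 8 were negative. hspa5 (BiP), the ER Hsp70 and the standard readout of ER stress, was at 308, 341 and 354 CPM in WT and at 260, 295 and 390 CPM in il26KO. il26KO replicates 1 and 3 held the lowest and the highest value of the 6 libraries, so the il26KO libraries surrounded those of WT. The log2 fold change was −0.09 ± 0.15 (adjusted p = 0.956, edgeR quasi-likelihood test), and 2 SE on either side ran from −0.38 to 0.21.

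Among the ER Hsp genes, 2 more had the same lowest and highest library. hsp90b1 (Grp94), the ER Hsp90, was at 214, 227 and 231 CPM in WT and at 191, 206 and 252 CPM in il26KO, with a log2 fold change of −0.05 ± 0.11. hyou1 (Grp170), which recharges BiP, was at 86.0, 86.4 and 93.7 CPM in WT and at 62.4, 87.6 and 105 CPM in il26KO, with a log2 fold change of −0.06 ± 0.17. In both genes il26KO replicate 1 was the lowest library and il26KO replicate 3 the highest. The lectin chaperones of glycoproteins did not share that order, and calnexin (canx) and calreticulin (calr) gave −0.10 ± 0.12 and −0.06 ± 0.10.

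Protein disulfide isomerases form and rearrange disulfide bonds, and 4 of the 7 tested genes were positive and 3 negative (median 0.02). pdia6 was at 112, 108 and 102 CPM in WT and at 85.1, 96.1 and 99.4 CPM in il26KO. The groups did not overlap, and the log2 fold change was −0.20 ± 0.09 with an unadjusted p of 0.0530 and an adjusted p of 0.843 (edgeR quasi-likelihood test). pdia3 (ERp57), the partner of the lectin chaperones, gave 0.06 ± 0.09, and pdia4 gave −0.05 ± 0.09.

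pdia2 encodes the disulfide isomerase of the exocrine pancreas. It was at 1198, 921 and 974 CPM in WT and at 687, 1034 and 965 CPM in il26KO. il26KO replicate 1 was the lowest library, and the log2 fold change was −0.20 ± 0.17. Acinar pancreas markers (25 of 34 listed, none at 0) summed to 80261, 62220 and 73593 CPM in WT and to 50372, 78262 and 80395 CPM in il26KO, so that il26KO replicate 1 was the lowest there too. As a share of this sum, pdia2 stood at 1.49%, 1.48% and 1.32% in WT and at 1.36%, 1.32% and 1.2% in il26KO, with means of 1.43% ± 0.094 and 1.29% ± 0.085 (SD, n = 3 each). The groups overlapped on that scale.

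ERAD returns misfolded ER proteins to the cytosol for degradation, and all 8 tested genes had a negative log2 fold change, with a median of −0.06 and 0 past the test. derl3, a channel component of secretory cells, was at 66.2, 58.9 and 59.0 CPM in WT and at 42.6, 57.7 and 60.3 CPM in il26KO (log2 fold change −0.20 ± 0.13). herpud1, an ER stress target that organises the degradation complex, was at 73.4, 65.3 and 74.6 CPM in WT and at 51.8, 66.8 and 75.1 CPM in il26KO (−0.14 ± 0.14). Both genes were lowest in il26KO replicate 1, and their other il26KO libraries lay within or near the WT range. sel1l, the adaptor of the Hrd1 ligase, gave −0.05 ± 0.10. dnajb9b (ERdj4), an ER J protein that brings BiP to Ire1 in mammals, was at 8.49, 8.65 and 9.32 CPM in WT and at 5.36, 8.69 and 9.03 CPM in il26KO, again lowest in il26KO replicate 1.

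The low library was shared by many of these genes. il26KO replicate 1 was the lowest of the 6 libraries for 7 of 8 ERAD genes (87.5%) and for 13 of 26 ER chaperone genes (50% of ER Hsp, lectin, disulfide isomerase and ER J protein genes), against 19% of all genes tested. It was the highest library for 0 genes of either group. Without it, 15 of the 26 ER chaperone genes were positive and 11 negative, with a median of 0.009, and 6 of 8 ERAD genes were negative. Without il26KO replicate 2, 3 of the 26 ER chaperone genes were positive and 23 negative. il26KO replicate 1 had the lowest acinar pancreas marker sum of the 6 libraries. The next lowest sum was that of WT replicate 2 (62220 CPM), which was the lowest library for 2 of the 26 ER chaperone genes. The part of pancreas RNA in the ER genes was not tested. Liver is a secretory organ too, and its markers (23 of 25 listed, none at 0) gave 21 negative and 2 positive log2 fold changes with a median of −0.32, of which 0 were called by the edgeR quasi-likelihood test. Their summed level was 52236, 77122 and 70046 CPM in WT and 66464, 54160 and 65707 CPM in il26KO, so the groups overlapped and the lowest library was WT replicate 1. The part of liver RNA in the ER, ERAD and mitochondrial chaperone genes was not tested. With the pancreas marker score as a covariate, 0 members were called and the median of the ER chaperone genes was −0.05. With the skeletal muscle score it was −0.015. These fits do not measure the part of pancreas or muscle RNA in the level of a gene.

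**Figure D3:**
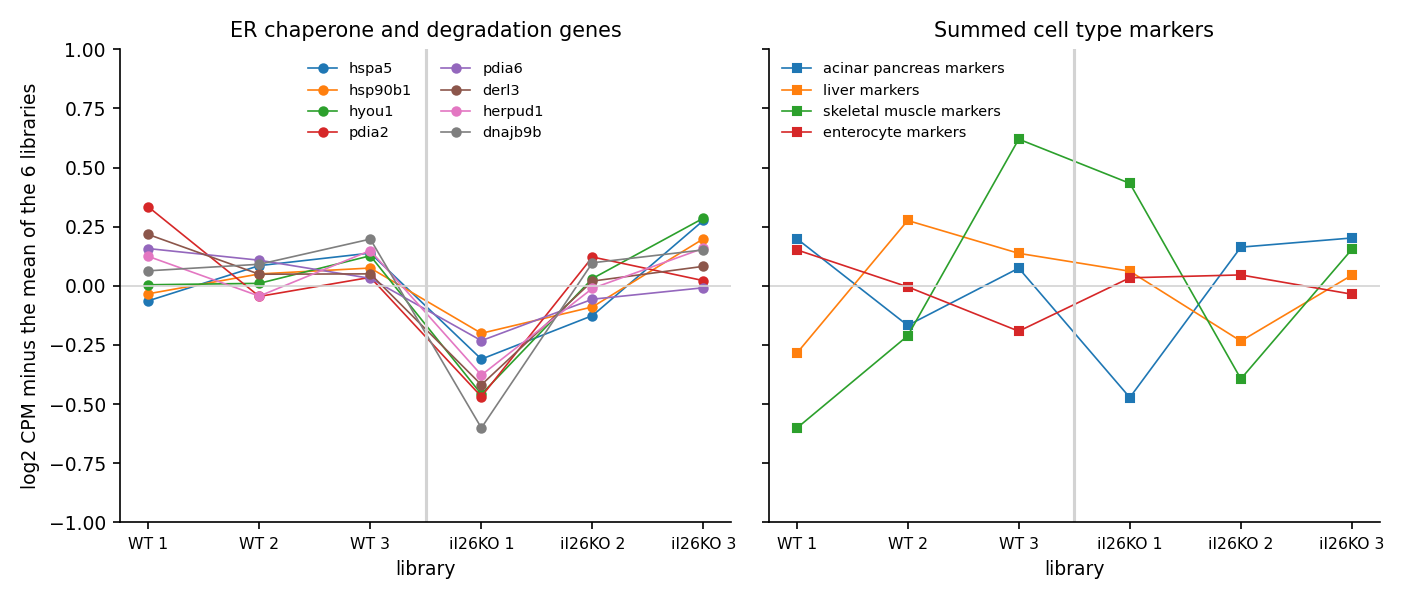
Log2 CPM minus the mean of the 6 libraries for 8 ER chaperone and degradation genes (left) and for the summed markers of 4 cell types (right), by library, with lines joining the points of a gene or list. All 8 genes drawn here are lowest in il26KO replicate 1, which was the lowest library for 13 of 26 ER chaperone genes. canx, calr, pdia3 and pdia4, which are not drawn, were lowest in WT replicate 3. The acinar pancreas marker sum is lowest in il26KO replicate 1 (50372 CPM) and next lowest in WT replicate 2 (62220 CPM).

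Of 10 tested factors and sensors of the unfolded protein response, 5 were positive and 5 negative, and none passed the test. ern1 (Ire1) was at 4.14, 2.80 and 4.18 CPM in WT and at 4.72, 4.47 and 4.69 CPM in il26KO. All il26KO libraries lay above the WT libraries, with a log2 fold change of 0.33 ± 0.18. xbp1, the mRNA that Ire1 splices, was at 319, 275 and 269 CPM in WT and at 276, 281 and 273 CPM in il26KO (−0.06 ± 0.09), and counts per gene do not separate its spliced form. atf6 gave −0.13 ± 0.12. creb3l2, which encodes a membrane-bound factor of secretory cells, lay higher in all il26KO libraries by a small step, with a log2 fold change of 0.09 ± 0.07.

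The 2 members of this group with the smallest unadjusted p pointed in opposite directions. ddit3 (Chop), a factor that links lasting ER stress to cell death, was at 54.6, 46.5 and 45 CPM in WT and at 34.8, 36.9 and 41.2 CPM in il26KO. The groups did not overlap, and the log2 fold change was −0.37 ± 0.10 with an unadjusted p of 0.00673 and an adjusted p of 0.461 (edgeR quasi-likelihood test). atf4b, a paralog of Atf4, was at 32.2, 26.7 and 25.3 CPM in WT and at 34.5, 30.8 and 35.1 CPM in il26KO. Here il26KO replicate 2 lay below WT replicate 1, and the log2 fold change was 0.26 ± 0.11 with an unadjusted p of 0.0441 and an adjusted p of 0.815. The other paralog, atf4a, gave 0.06 ± 0.08.

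Other genes of the ER and integrated stress responses were read from a list compiled by hand, of which 51 of 63 were listed and 45 tested. With the edgeR quasi-likelihood test 0 of them were called, 14 were positive and 31 negative, and the median was −0.06. Over all genes tested, 53.2% were positive. At an unadjusted p below 0.05, trib3, chac1 and ddit4 were higher in il26KO (3 of 45, against 3.52% of all genes). At the same cutoff nupr1b and asns were lower (2 of 45, against 2.51% of all genes). These 5 genes belong to the Atf4 and Chop branch, and they did not share a direction.

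nupr1b, a stress-induced chromatin protein that is abundant in stressed pancreas, was at 779, 653 and 555 CPM in WT and at 285, 370 and 372 CPM in il26KO. Every il26KO library was far below every WT library, with a log2 fold change of −0.95 ± 0.15 and an adjusted p of 0.127 (edgeR quasi-likelihood test). DESeq2 (adjusted p = 1.75e-06) and the likelihood ratio test of edgeR (adjusted p = 3.84e-05) called this gene. asns, asparagine synthetase and an Atf4 target, was at 34.7, 33.5 and 36.1 CPM in WT and at 26.6, 29.0 and 24.7 CPM in il26KO (−0.38 ± 0.08, adjusted p = 0.273 with the edgeR quasi-likelihood test), and neither DESeq2 (adjusted p = 0.114) nor the likelihood ratio test (adjusted p = 0.0846) called it.

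trib3, a pseudokinase that restrains Chop, was at 31.2, 33.2 and 30.4 CPM in WT and at 51.8, 41.2 and 43.5 CPM in il26KO. The groups did not overlap, with a log2 fold change of 0.53 ± 0.10 and an adjusted p of 0.186 (edgeR quasi-likelihood test), while DESeq2 called it at an adjusted p of 0.0153. chac1, a glutathione-degrading enzyme, was at 107, 195 and 163 CPM in WT and at 414, 234 and 298 CPM in il26KO, a log2 fold change of 1.03 ± 0.26 (adjusted p = 0.385, and 0.00379 with DESeq2). ddit4 (Redd1), which restrains mTORC1, was at 6.54, 13.5 and 10.5 CPM in WT and at 20.8, 19.6 and 16.7 CPM in il26KO, a log2 fold change of 0.90 ± 0.23 (adjusted p = 0.411, and 0.0236 with DESeq2). In trib3, chac1 and ddit4 the highest library was il26KO replicate 1.

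**Figure D4:**
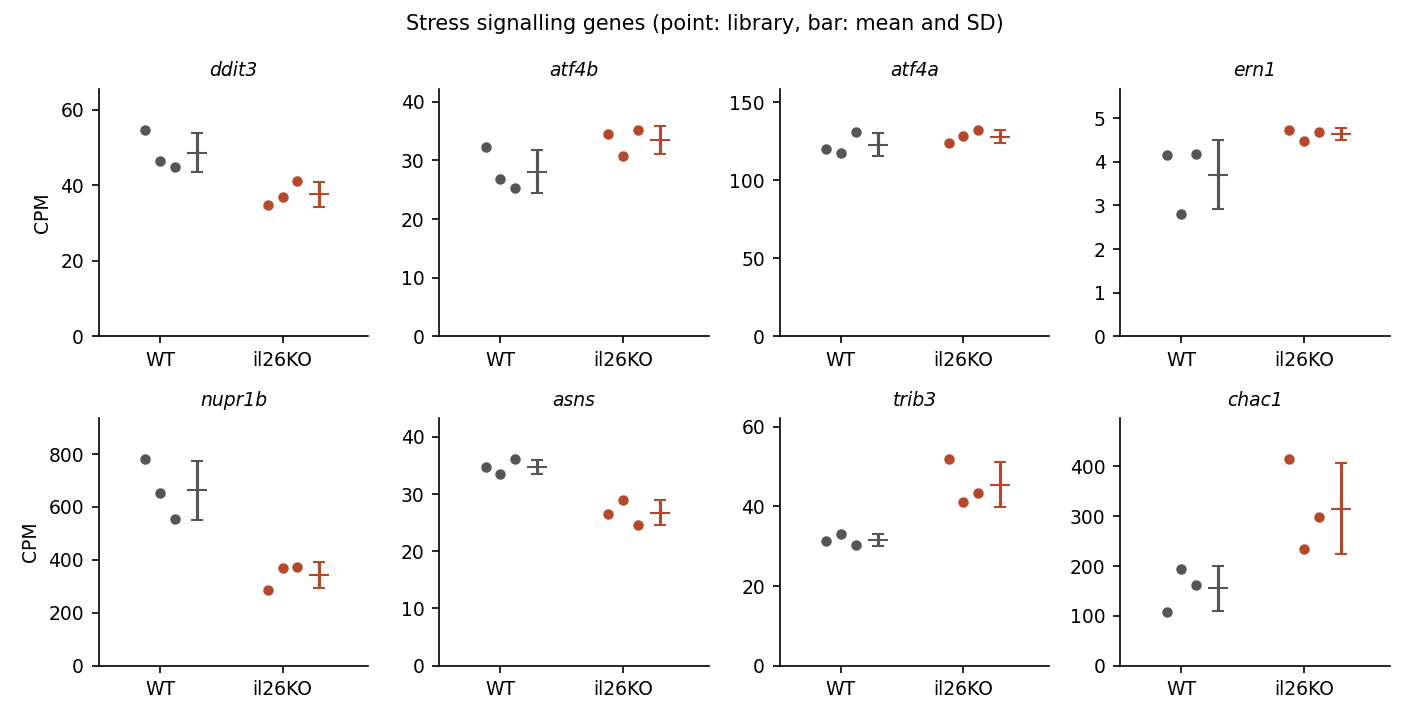
Level in CPM of 8 stress signalling genes, with a point for each library and the mean and SD of each genotype beside them, on axes that start at 0. The il26KO points of ddit3, nupr1b and asns lie below those of WT, and those of ern1, trib3 and chac1 lie above.

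A list of cytosolic heat shock partners, co-chaperones and other Hsf1 targets, held 41 genes, all of them listed and 38 tested. Of these, 28 were positive and 10 negative with a median of 0.05, and 0 were called by the edgeR quasi-likelihood test. The 8 genes of the TRiC chaperonin, which folds actin and tubulin, were all positive, and none passed the test. Over all genes tested, 53.2% were positive. At an unadjusted p below 0.05, fkbp5 was higher (1 of 38, against 3.52% of all genes) and serpinh1b lower (1 of 38, against 2.51%).

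fkbp5, an Hsp90 co-chaperone that glucocorticoid induces, was at 22, 55.2 and 35.4 CPM in WT and at 253, 74.3 and 125 CPM in il26KO. The groups did not overlap and il26KO replicate 1 was again the highest library, and the log2 fold change was 2.01 ± 0.47 (adjusted p = 0.332 with the edgeR quasi-likelihood test). The likelihood ratio test called it (adjusted p = 0.00489) and DESeq2 did not (adjusted p = 0.137). serpinh1b (Hsp47), the collagen chaperone of the ER, which is grouped here as a heat shock protein, was at 11.9, 15.7 and 19.8 CPM in WT and at 10.9, 9.52 and 7.62 CPM in il26KO (−0.76 ± 0.20, adjusted p = 0.428).

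Cytosolic and ER chaperones were then set side by side. Of 25 tested cytosolic chaperone genes (Hsp70, Hsp90 and Hsp110, small Hsp and class A or B J protein genes), 76% had a positive log2 fold change, with a median of 0.08. With at least 10 counts required in every library, 21 cytosolic chaperone genes were left, of which 15 were positive and 6 negative, with a median of 0.07. Of 26 tested ER chaperone genes, 38.5% were positive, with a median of −0.05. Without il26KO replicate 3, the cytosolic median was 0.023 (15 genes positive, 10 negative). Without WT replicate 1, it was 0.047 (14 genes positive, 11 negative). WT replicate 1 was the lowest of the 6 libraries for 9 of the 25 cytosolic chaperone genes (36%), against 19.8% of all genes tested. The difference of the medians was 0.13, and it ranged from 0.05 without il26KO replicate 3 to 0.21 without WT replicate 3. Taken library by library, this difference had an SD of 0.118 within genotypes, pooled over both. No test was made over the genes of a class, because genes of the same libraries are not replicates.

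Summed over the class, the cytosolic chaperones were at 9321, 8732 and 8821 CPM in WT and at 9487, 9886 and 9210 CPM in il26KO, with means of 8958 ± 317 and 9528 ± 340 CPM (SD, n = 3 each). hsp90ab1 made up most of this sum. The ER chaperones were at 3542, 3278 and 3126 CPM in WT and at 2799, 3255 and 3256 CPM in il26KO, with means of 3315 ± 210 and 3103 ± 264 CPM. In both classes the groups overlapped.

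The ratio of ER to cytosolic chaperone counts was 0.380, 0.375 and 0.354 in WT and 0.295, 0.329 and 0.353 in il26KO. The highest il26KO library lay just below the lowest WT library, and the means were 0.370 ± 0.014 and 0.326 ± 0.029 (SD, n = 3 each). Without pdia2 and hsp90ab1, the genes with the most counts in the ER and cytosolic class, the ratio was 1.599, 1.69 and 1.53 in WT and 1.46, 1.32 and 1.51 in il26KO. The groups again stood next to each other without overlap, with means of 1.605 ± 0.077 and 1.43 ± 0.10. By the median deviation of log2 CPM from each gene's mean, the genotypes did overlap. The cytosolic class stood above the ER class in WT replicate 3 (0.076 against −0.007). It also did so in il26KO replicate 1 (−0.016 against −0.085) and il26KO replicate 3 (0.068 against −0.002). In WT replicates 1 and 2 and il26KO replicate 2 (−0.023 against 0.063) it stood below. The classes and the ratio were chosen with earlier results of these data known, so the ratio is given as a description.

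**Figure D5:**
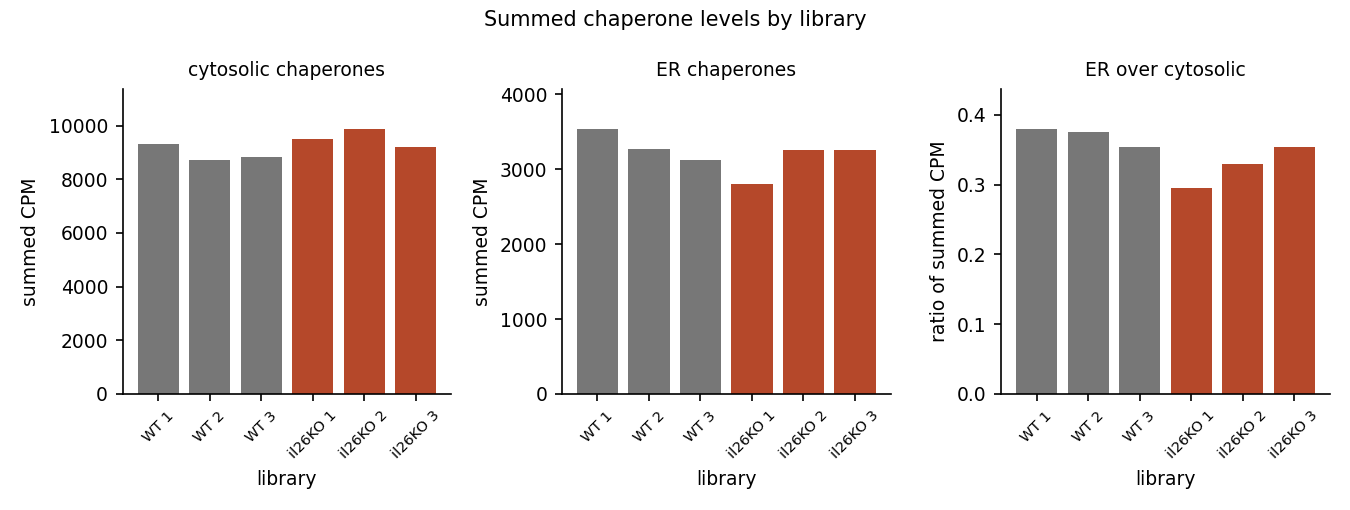
Summed CPM of the cytosolic chaperone genes and of the ER chaperone genes, and the ratio of ER to cytosolic sums, as bars for each of the 6 libraries on axes that start at 0. The ratio is lowest in il26KO replicate 1 (0.295), and all il26KO libraries lie below those of WT by a margin that is small in il26KO replicate 3.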

How the data were processed

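RNA of 6 pooled gut libraries was measured by stranded, poly(A)-selected mRNA sequencing with paired 100-bp reads. Raw counts per gene were deposited by the authors, who checked reads with FastQC 0.11.8 and aligned them to danRer11. The aligner, counting tool, annotation and strand setting were not given in the sources used here, so values of close paralogs and overlapping genes are uncertain. Columns were matched to samples through library names, and the group was taken from the sample title.

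Counts were analysed in R 4.3.3 with edgeR 4.0.16. The count filter was that of filterByExpr with genotype as group (at least 10 counts, 15 in total), libraries were scaled by TMM, and the genotypes were compared over all 11095 genes kept with the two-sided quasi-likelihood test, Benjamini-Hochberg adjustment and a threshold of 0.05. The SE is the size of the log2 fold change over the root of its F statistic. A count of 3, taken as the floor, equals 0.106 to 0.192 CPM (counting error only). Nothing in the sources says that same-group libraries came from separate clutches, so p-values measure only the spread between these libraries. Counts of same-genotype libraries were further apart than sampling alone gives (chi-square of 17.3 to 53.3 for each degree of freedom).

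Genes named are the 12 members with the smallest p, the 3 highest by mean CPM in each chaperone class, a list of stress genes, and partner genes with an unadjusted p below 0.05. Other members, such as those whose groups did not overlap or that share a family with a named gene, were added after their values were seen. Roles were set from symbols, so the cytosolic and ER classes are an approximate split by compartment. The cytosolic class held J proteins of class A and B only. The ER class held dnajb12a, dnajb12b, dnajb14 and dnajc18, and the side of the ER membrane on which a J protein acts was not considered. Members, lists and classes were chosen with earlier results of these data known. Of 110 symbols, 109 were matched to RefSeq (assembly GRCz12tu), which was used only for names and neighbours. The fit was tested on simulated counts. Alternatives were RLE size factors, other count filters, DESeq2 1.42.0, the likelihood ratio test, the robust fit, the replicate block, marker scores as covariates, and leaving out each library. The role counts with a library left out were added after seeing the data.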

Additional observations from a re-analysis of the deposited data

How the results depend on the processing

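The count of called members was 0 under all alternatives run, while the calls over all genes were 12 with the quasi-likelihood test, 83 with DESeq2, 93 with the likelihood ratio test, 31 with the pancreas score, 2 with the replicate block and 3 to 8 with a library left out. The acinar pancreas score also brought chac1 (adjusted p = 0.0261), fkbp5 (0.0111) and nupr1b (0.0233) past the threshold, and the muscle score nupr1b (0.0383). The likelihood ratio test called trib3 (0.00724), chac1 (0.0229) and ddit4 (0.0375) as well. None of the named partner genes passed with the robust quasi-likelihood fit, with the replicate block or with any library left out. The robust fit gave adjusted p-values of 0.0917 for nupr1b, 0.134 for trib3, 0.594 for ddit4, 0.690 for chac1 and 0.736 for fkbp5. The muscle score turned hsp90aa1.1 to −0.038. The median of the cytosolic chaperones was 0.24 over Hsp70, Hsp90 and Hsp110 genes alone. For these genes it was 0.14 with the pancreas score and 0.20 with the muscle score. With a library left out, the median of the whole cytosolic class ran from 0.023 to 0.18, and that of the ER chaperones from −0.077 to 0.0087, its highest value without il26KO replicate 1. The number of negative genes among the 8 ER Hsp and lectin genes was then 4.

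Log2 fold changes that changed sign with a library left out ran from −0.11 to 0.010 for xbp1, −0.12 to 0.27 for hsp90aa1.1, −0.14 to 0.012 for pdia4, −0.19 to 0.014 for hspb1, −0.27 to 0.017 for hspa5, −0.18 to 0.015 for hsp90b1, −0.24 to 0.10 for hyou1, −0.13 to 0.020 for sel1l, −0.0026 to 0.10 for pdia3, −0.30 to 1.90 for hsp70.3, −0.64 to 0.73 for hsp70l and −0.75 to 1.14 for hsp70.2. None of these genes passed the threshold in any of these fits.

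With the replicate number as a block, 0 members were called, and the medians were 0.08 for cytosolic and −0.05 for ER chaperones. Deviations of same-numbered libraries had correlations of −0.22, −0.05 and 0.09, so no clear shared effect of the replicate number was seen. These correlations cannot show whether same-numbered libraries were collected together. With 3 libraries per genotype, small differences in members with few counts could not be resolved. In the inducible hsp70 genes, the spread between il26KO libraries limited the comparison as well.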
